A study of Mus musculus with 12 samples.

Results

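Mouse chromosome 6 was read region by region in 12 ATAC-seq libraries from NIH/3T3, a mouse fibroblast line that grows without limit, to ask at which level each Actg1 mutant line stands against wild type along the chromosome. Of the 4760 regions that the deposited table places on chromosome 6, the 3518 (73.91%) with a mean normalized read count of 50 or more over the 12 libraries were used, in order of their start. The whole table holds 81995 regions, of which 60193 reach the same mean. The weakest region used had a mean of 50.08 and the strongest one left out had 49.92. The groups had 3 libraries each. WT cells carry an intact Actg1, the gene of cytoplasmic gamma-actin, which lies on another chromosome. PTC1 carries 1 extra nt after position 280 and a stop codon in exon 3, PTC2 carries 4036 extra nt after position 1096 and a stop codon in exon 5, and LD has lost the whole Actg1 locus. Each library was made from 25000 cells transposed for 30 min at 37 °C. The labels name no separate clones, so each allele was taken as 1 line, and the p-values measure the spread between libraries, not between clones. The edited gene itself was not analysed here.

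ATAC-seq uses the Tn5 transposase, which inserts sequencing adapters where DNA is not wrapped tightly on nucleosomes, so that promoters and enhancers stand out as regions of many reads. Promoters of widely used genes are open in most cell types, while distal enhancers are open in few and mark what a cell line is. The reads of a region depend on how open its DNA is and also on how many copies of it the cells hold. Copies were not counted here, so openness and copy number cannot be told apart in these values, and NIH/3T3 cells are known to be aneuploid.

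The 3518 regions ran from base 3345760 to base 149566356 (mm10) and had a median width of 660 bp (119 to 3375 bp). A gene was listed for 1147 of them (32.6%). The centre of 595 lay within 1000 bp of the start site of a listed gene, and these had a median normalized read count of 1163, against 176.8 for the other regions. Their 12 libraries held 25.01 to 44.97 M (mega) estimated reads in regions genome-wide, fewest in LD replicate 2 and most in PTC2 replicate 2. Over the 3518 regions, the WT libraries summed to between 1.944 and 1.977 M normalized read counts. PTC1 reached between 2.104 and 2.157 M, PTC2 between 2.029 and 2.115 M, and LD between 1.432 and 1.486 M. WT and LD overlapped no other group, and PTC1 and PTC2 overlapped each other. Of 10 fibroblast marker genes, 7 had a region at their start site, at 193 to 4916. The genes Col1a2, Thy1 and Fbn1 had none listed. Start site regions were also present for 2 of 5 blood, 1 of 4 endothelial, 2 of 5 epithelial, 1 of 3 muscle and 1 of 4 neural markers, the highest of these being the neural marker at 666.2.

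The promoters shown next belong to start site regions that moved far from their surroundings. For each line they are the largest rise and the largest fall among regions that overlap a promoter of their listed gene in the RefSeq table, to which Foxp2 and Actg2 were not matched. Each sequence gives the 250 bases before the start site (RefSeq, build GRCm38.p6, 5′ to 3′ on the strand of the gene). Cav3 (chr6:112459255-112459504, plus strand) encodes the caveolin of muscle and was chosen for its rise in PTC1 and in PTC2. Its region covers 161 of the 250 bases, and the other 4 regions cover all of them. Eva1a (chr6:82041378-82041627, plus strand) encodes a membrane protein with a role in autophagy and was chosen for its fall in PTC1. Prickle2 (chr6:92706185-92706434, minus strand), a planar cell polarity gene, was chosen for its fall in PTC2. Ldhb (chr6:142507958-142508207, minus strand), which encodes the B subunit of lactate dehydrogenase, was chosen for its rise in LD, and Bicd1 (chr6:149408734-149408983, plus strand), the gene of a dynein adaptor, for its fall in LD. Capitals mark matches on either strand to the letters searched.
Cav3 promoter: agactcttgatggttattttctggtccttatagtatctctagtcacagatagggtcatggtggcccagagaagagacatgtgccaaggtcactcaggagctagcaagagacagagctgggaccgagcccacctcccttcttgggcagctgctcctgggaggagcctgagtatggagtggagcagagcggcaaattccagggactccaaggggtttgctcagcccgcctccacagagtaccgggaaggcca
Eva1a promoter: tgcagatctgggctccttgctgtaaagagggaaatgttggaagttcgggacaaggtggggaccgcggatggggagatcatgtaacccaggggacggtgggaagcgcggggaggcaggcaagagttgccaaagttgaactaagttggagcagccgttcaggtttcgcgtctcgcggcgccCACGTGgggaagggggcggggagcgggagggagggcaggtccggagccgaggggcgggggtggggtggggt
Prickle2 promoter: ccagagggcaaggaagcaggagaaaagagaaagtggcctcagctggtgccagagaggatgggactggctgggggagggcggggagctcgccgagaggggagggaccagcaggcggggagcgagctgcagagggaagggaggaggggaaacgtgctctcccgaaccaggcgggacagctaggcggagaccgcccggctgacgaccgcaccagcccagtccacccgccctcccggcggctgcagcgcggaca
Ldhb promoter: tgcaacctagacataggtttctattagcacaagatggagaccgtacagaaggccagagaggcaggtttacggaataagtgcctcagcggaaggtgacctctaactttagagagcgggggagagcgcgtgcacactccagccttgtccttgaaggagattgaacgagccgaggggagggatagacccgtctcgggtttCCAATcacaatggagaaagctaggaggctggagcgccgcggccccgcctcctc
Bicd1 promoter: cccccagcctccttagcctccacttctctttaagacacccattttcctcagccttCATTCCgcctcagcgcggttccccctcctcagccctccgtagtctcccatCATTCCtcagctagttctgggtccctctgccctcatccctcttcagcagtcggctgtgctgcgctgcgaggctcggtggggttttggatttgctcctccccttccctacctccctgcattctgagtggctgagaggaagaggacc
The letters searched on both strands were TGANTCA for AP-1, GGAATG for TEAD, TATAAA for the TATA box, CACGTG for the E-box and CCAAT for the CCAAT box, together with the CArG box of serum response factor by its name, and no matches overlapped. They were found in 6.73%, 12.6%, 12.3%, 6.04%, 33.8% and 1.48% of 32536 RefSeq promoters of the same length, in that order. Eva1a held CACGTG starting 71 bases before its start site, Ldhb held CCAAT starting 53 bases before, and Bicd1 held GGAATG on the minus strand starting 195 and 145 bases before. Cav3 and Prickle2 held none of these letters in this window. The promoters differed in composition, from 4 CG pairs and 56% G and C in Cav3 to 18 CG pairs and 70% in Prickle2.

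Across the chromosome the lines stood at different levels. The median log2 difference from WT over the 3518 regions was 0.14 in PTC1, 0.07 in PTC2 and -0.37 in LD, where a log2 difference of 1 is a doubling of the value plus 1. Among the 20 chromosomes, chromosome 6 ranked 4 from the highest for PTC1, 9 for PTC2 and 18 for LD. The medians of the other chromosomes spanned -0.44 to 0.39 in PTC1, -0.27 to 0.25 in PTC2 and -0.62 to 0.13 in LD. The 3 comparisons share the WT libraries, so their agreement or difference is given as values only.

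In LD, 1980 of the 3518 regions were lower (56.3%) and 329 higher (9.35%) at an adjusted p under 0.05 (limma on log2 values, Benjamini-Hochberg over all regions tested). Over all 81985 regions tested, 24.7% were lower and 22.6% higher, so the chromosome 6 share of lower regions was above the background and that of higher regions below it. PTC1 had 1431 higher (40.7%) and 895 lower (25.4%), against 30.6% and 31.2% of all regions. PTC2 had 1279 higher (36.4%) and 1053 lower (29.9%), against 28.4% and 29.8%. In the mean of the premature stop lines against LD, which uses no WT library, 2299 regions were higher (65.3%) and 528 lower (15%), against 32.1% and 32.6% of all regions. PTC1 against PTC2 gave 1264 higher (35.9%) and 939 lower (26.7%), against 31.6% and 30.9%. Restricted to a mean of 50 or more, the background shares higher and lower were 29.9% and 35.5% in PTC1. They were 30.1% and 32.1% in PTC2 and 23.4% and 28.7% in LD. For the premature stop lines against LD they were 33.8% and 34.9%, and for PTC1 against PTC2 31% and 34.3%. Of the 595 start site regions, PTC1 had 311 up and 102 down, PTC2 316 and 89, and LD 35 and 440. The share called among start site regions of all chromosomes was not counted. Their median log2 difference from WT was 0.017 in PTC1, 0.098 in PTC2 and -0.057 in LD, against 0.194, 0.201 and -0.410 on chromosome 6.

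The level did not stay constant along the chromosome. Segments of constant level were searched with a penalty for each edge, and no test is given for them, since the same values placed the edges. In PTC1 the search gave 6 segments. The first (541 regions, to base 34521332) stood at -0.05, followed by 0.25 (687 regions, from 34528179), 0.41 (756 regions, from 67475645), -0.09 (635 regions, from 97761453), 0.21 (373 regions, from 122297440) and -0.06 (526 regions, from 134439583). The step of -0.51 into the segment from 97761453 was larger than the other 4 steps of PTC1. It took the level from a segment in which 78.4% of regions lay above WT to one in which 41.1% did. The libraries gave these levels separately: in the segment from 67475645 the PTC1 libraries stood at 0.39, 0.42 and 0.45 from the WT mean, and in the next at -0.11, -0.09 and -0.07. The WT libraries lay within 0.01 of their mean in both.

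PTC2 had 5 segments, at -0.06 (710 regions, to base 39244559), 0.34 (1267 regions, from 39283843), -0.10 (639 regions, from 97294148), 0.15 (559 regions, from 122257763) and -0.32 (343 regions, from 137783922). The level of its first segment turned to 0.04 when every library was scaled to the same median. In the last segment its 38 start site regions stood at -0.04 and its 305 other regions at -0.39 against WT. LD had 3 segments, all below WT, at -0.71 (525 regions, to base 34332571), -0.39 (1840 regions, from 34346467) and -0.21 (1153 regions, from 115998815). In the first of these 391 of 525 regions were lower and 26 higher. The LD libraries stood there at -0.69, -0.69 and -0.70, while the PTC1 libraries lay between -0.08 and -0.05 and the PTC2 libraries between -0.11 and -0.05.

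**Figure D1:**
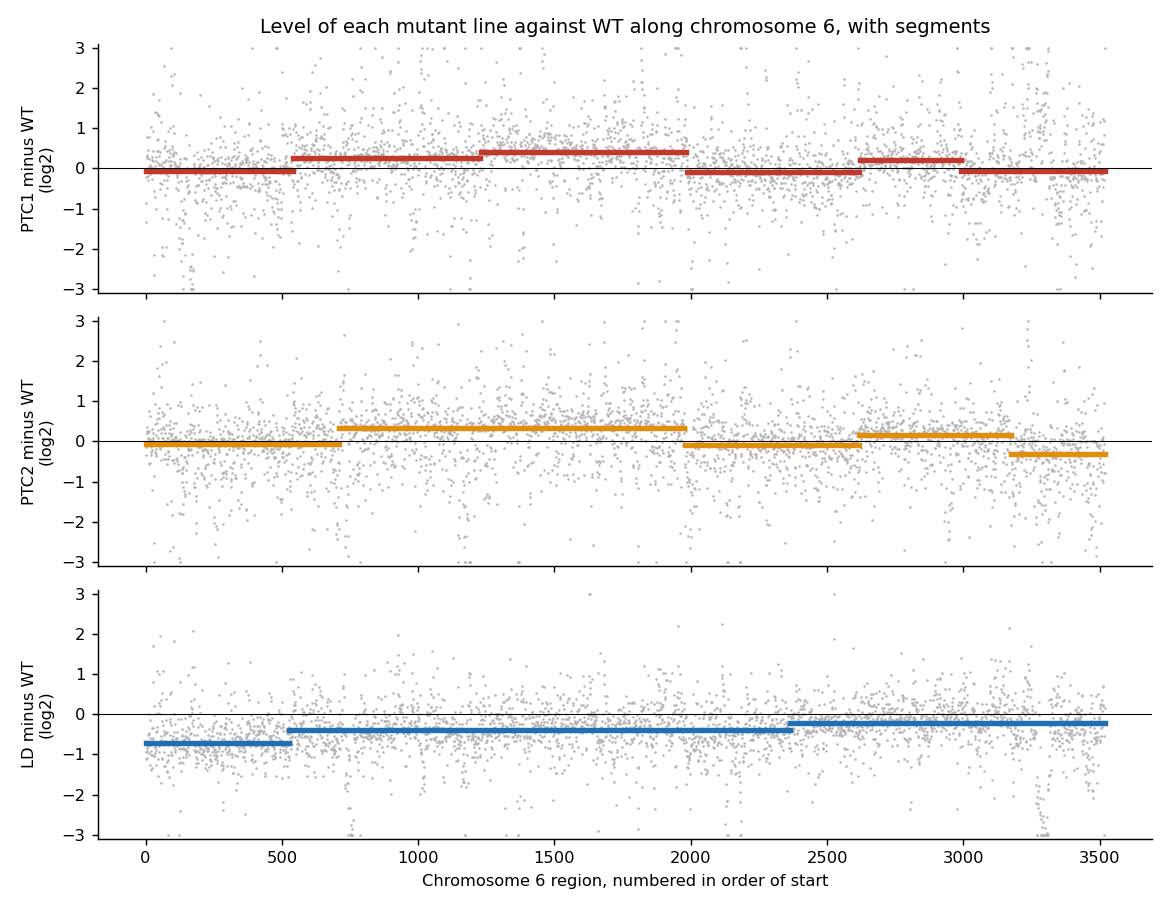
Log2 difference of each mutant line from WT (vertical axis) for the 3518 chromosome 6 regions in order of start (horizontal axis). Each grey point is 1 region, drawn at 3 or -3 where it lies beyond, and the coloured lines are the segment levels. PTC1 and PTC2 stand above WT over their longest raised segments and the 3 LD levels lie below WT.

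**Figure D2:**
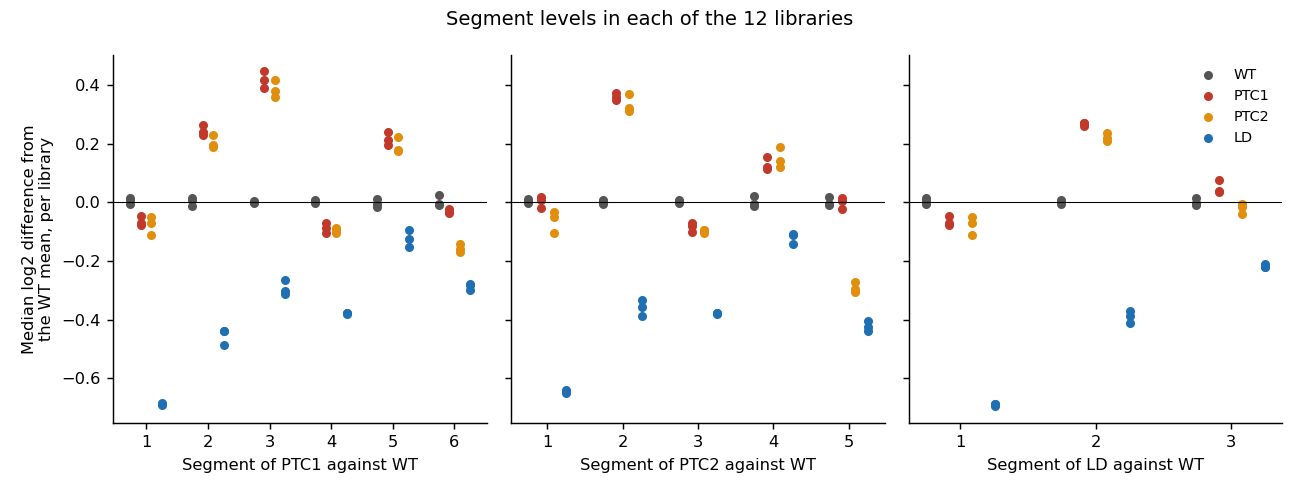
Median log2 difference from the WT mean (vertical axis) in each segment (horizontal axis) for each of the 12 libraries, with 1 panel for the segments of each line. Libraries of a group lie close together, and the LD libraries are the lowest in every segment shown.

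Edges of different lines were counted as near each other at 10 regions or less. The edges at 97761453 in PTC1 and 97294148 in PTC2 were near, 7 regions apart, and so were those at 122297440 and 122257763, 3 apart. The PTC1 edge at 34528179 and the LD edge at 34346467 lay 16 regions apart, beyond this limit. The lines share the WT libraries, so edges of different lines are not independent. Segments were therefore also searched between mutant lines, without WT, an analysis added after the data were seen. PTC1 against LD had 1 edge, at 112459344, where the level went from 0.70 to 0.26. PTC2 against LD had 1 edge, at 112490653, from 0.63 to 0.22. PTC1 against PTC2 had no edge and stood at 0.05. The edges at 112459344 and 112490653 lay more than 10 regions from every edge found against WT. The cause of the edges was not tested.

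Not every edge held when a library was left out or a setting was changed. An edge was counted as found where another search placed one within 10 regions. In PTC1 the edges at 34528179 and 67475645 were found in 6 of 6 searches without 1 library and the other 3 in 5 of 6. In PTC2 the edges at 39283843 and 122257763 were found in 6 of 6, the one at 137783922 in 5 and the one at 97294148 in 4. Both LD edges were found in 4 of 6. The misses came without WT replicate 3 in PTC1 (3 edges), without PTC2 replicate 1, PTC2 replicate 3 or WT replicate 3 in PTC2 (1 edge each), and without LD replicate 2 or WT replicate 2 in LD (both edges). With start site regions alone and a penalty of 5, the edges not found were 4 of 5 in PTC1, 2 of 4 in PTC2 and both in LD. A penalty of 20 lost 3 edges each in PTC1 and PTC2, and a loss limit of 2 lost both LD edges and the PTC1 edge at 97761453. A minimum mean of 100 lost 2 edges in PTC1 and 1 each in PTC2 and LD, and a minimum mean of 20 and a pseudocount of 10 each lost 1 in LD.

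Single regions beside an edge did not all follow the step. At the large PTC1 step, the last region on the left, 97759180 to 97759603, read 69, 85 and 49 in WT and 93, 95 and 63 in PTC1. The first on the right, 97761453 to 97761787, read 62, 70 and 90 in WT and 53, 68 and 68 in PTC1. Neither was called, and the PTC1 and WT values overlapped in both. At the second LD edge lay Plxnd1, which encodes a semaphorin receptor. Its start site region read 1896, 2186 and 2201 in WT and 1523, 1608 and 1659 in LD, a log2 change of -0.39 (SE 0.066, limma adjusted p = 1.56e-05), the level of the segment it closes. The next region, 4078 bp from the same start site, opens the following segment and did not differ in LD (log2 -0.03, adjusted p = 0.88), but read 489, 535 and 601 in PTC2 against 91, 114 and 126 in WT.

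Regions that depart from their segment were found by subtracting the segment median from each library and fitting again. A region was said to leave its segment at an adjusted p under 0.05 and a centred log2 change of 1 or more. PTC1 had 349 such regions above and 322 below their segment, which is 9.92% and 9.15% of the 3518, against 12.5% and 10.3% of all regions tested genome-wide. PTC2 had 235 (6.68%) above and 418 (11.9%) below, against 8.61% and 13.4%. LD had 170 (4.83%) above and 214 (6.08%) below, against 6.93% and 5.32%. The backgrounds restricted to a mean of 50 or more were 8.26% and 9.44% in PTC1, 6.03% and 11.9% in PTC2 and 4.58% and 4.23% in LD. The chromosome 6 shares lay within 2 percentage points of these. The minimum mean itself favours some of them: 114 of the 349 regions above their segment in PTC1, 37 of the 235 in PTC2 and 18 of the 170 in LD reached a mean of 50 only through the libraries of that line. Below their segment, 27 of 322 regions in PTC1, 36 of 418 in PTC2 and 15 of 214 in LD did so only through WT.

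Of the start site regions 9.41% left their segment in PTC1, 6.89% in PTC2 and 5.38% for LD, and of the other regions 21%, 20.9% and 12%. The difference in these shares was not tested. The regions that left had a median normalized read count of 116.2 above and 156.5 below their segment in PTC1, against 292.9 for those that did not leave. For each line, the 10 largest rises and the 10 largest falls with no overlap with WT had centred changes of 3.51 to 5.30 and -4.40 to -2.63 in PTC1, 2.61 to 3.96 and -5.36 to -3.01 in PTC2, and 1.86 to 3.98 and -5.65 to -2.81 in LD. Several of these regions reached the minimum mean only through a single group. The largest PTC1 rise, at 56335876, did so through PTC1, and the largest PTC2 rise, at 95988723, through PTC2. The largest PTC1 fall, at 15257378, did so through LD, and the largest LD fall, at 144329142, through WT. The ranges are therefore descriptions.

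**Figure D3:**
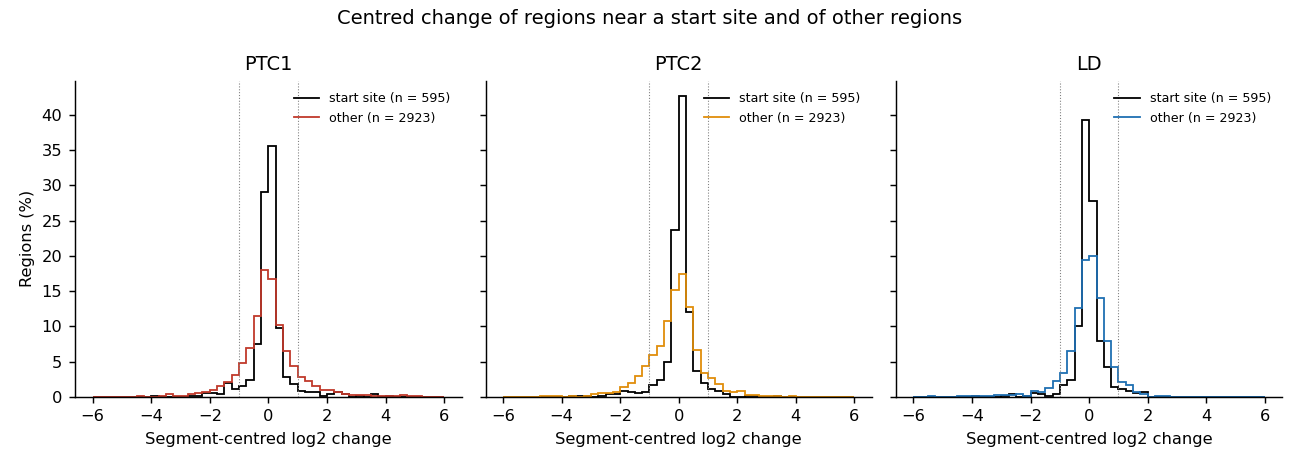
Distribution of the segment-centred log2 change (horizontal axis) as a percentage of regions (vertical axis), for 595 regions near a start site (black) and 2923 other regions (colour), 1 panel per line. The dotted lines mark a centred change of -1 and 1, and the other regions spread more widely in all 3 lines.

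The longest run of regions that left together lay over Sox5, which encodes a transcription factor of the SOX family with roles in cartilage and neural development. In LD, 33 consecutive regions from 143844300 to 144773346, all inside the RefSeq body of Sox5, were below their segment. Their median normalized read count was 117.3 for WT, 255.3 for PTC1, 62 for PTC2 and 12.67 for LD. Summed over the 33 regions the WT libraries read 7276, 7363 and 7313, the PTC1 libraries 17717, 17705 and 17743, the PTC2 libraries 4369, 4376 and 4690, and the LD libraries 941, 954 and 801. The order PTC1, WT, PTC2, LD held without overlap between groups. In PTC1, 26 of the 33 regions were higher than WT and 2 lower, and in PTC2 23 were lower and none higher. Several of the 33 reached a mean of 50 only through PTC1, and a few only through WT. The counts for this stretch are therefore descriptions, and no test is given. The log2 change of single regions ran from -5.86 to -1.53 in LD and from -1.14 to 2.99 in PTC1. The region 144329142 to 144329743 read 139, 90 and 123 in WT and 1, 1 and 1 in LD, a centred change of -5.65, given with no test because the region reached a mean of 50 only through WT.

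**Figure D4:**
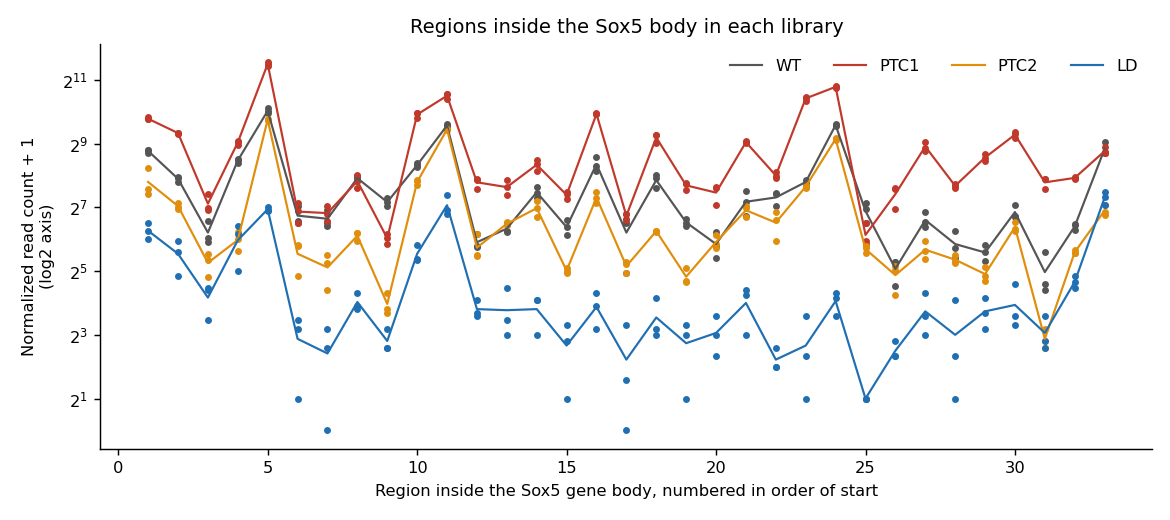
Normalized read count plus 1 (vertical log2 axis) in each library for the 33 regions inside the Sox5 body, numbered in order of start (horizontal axis). Lines join the group means, and the LD line runs below the WT line over all 33 regions.

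With a smaller penalty on edges (5 in place of 10), this stretch became a segment of its own in 2 lines. In PTC1 it held 46 regions from 143333509 to 144711247 at a level of 1.32, a 2.5-fold rise, and over the same regions PTC2 stood at -0.82 and LD at -2.74. Several of these 46 regions reached the minimum mean only through PTC1, which favours a high PTC1 level. The PTC1 libraries gave 1.25 to 1.32, and the LD libraries -2.76, -2.39 and -2.85. In LD the segment ran on to 144773346 with 47 regions at -2.69.

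The smaller penalty also set apart the surroundings of Mitf, which encodes the master transcription factor of melanocytes. There 23 regions from 97759180 to 98410267 stood at -1.01 in PTC2, and 17 regions from the same start to 98089888 stood at -1.04 in LD. Inside the Mitf body, 14 regions had a median of 424.5 for WT, 390.5 for PTC1, 201.8 for PTC2 and 186.8 for LD, and 13 of them were lower in PTC2 and 14 in LD. Over the whole chromosome 29.9% of regions were lower in PTC2 and 56.3% in LD. Of the 14 regions, 5 left their segment downward in PTC2 and 2 in LD. At its start site Mitf read 1795, 1573 and 1624 for WT, 1708, 1699 and 1797 for PTC1, 1493, 1312 and 1319 for PTC2 and 958, 893 and 800 for LD. It was lower in LD (log2 -0.91, SE 0.070, limma adjusted p = 7.1e-12) and, by less, in PTC2 (log2 -0.28, adjusted p = 0.0013). Part of this was the level of the segments, and the centred changes were -0.52 in LD and -0.18 in PTC2.

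In PTC1 the longest run below its segment lay at Foxp2, the gene of a forkhead transcription factor known for its role in brain circuits for vocal learning. It held 15 consecutive regions from 14503893 to 15544618, and 9 of the regions used lay inside the Foxp2 body. Those 9 had a median of 182.3 for WT, 17.33 for PTC1, 317.7 for PTC2 and 221.7 for LD. Among them, the region at 15186705 reached the minimum mean only through PTC2 and the one at 15257378 only through LD. These medians are therefore descriptions. The start site region 14900178 to 14901912 read 1339, 1270 and 1342 in WT and 90, 75 and 114 in PTC1. It read 1712, 1397 and 1513 in PTC2 and 1060, 874 and 945 in LD. PTC1 thus lay far below all other libraries (log2 -3.83 against WT, SE 0.105, limma adjusted p = 1.79e-22), while PTC2 overlapped no WT library but was not called (adjusted p = 0.071). In LD it was lower by 0.46 (adjusted p = 6.13e-04), a smaller fall than the level of its segment. Inside the body, region 15284063 read 120, 110 and 87 in WT, 22, 16 and 14 in PTC1, and 444, 483 and 415 in LD, so LD and PTC1 left their segments in opposite directions there.

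Regions inside several other long gene bodies had many reads in PTC1 and few in WT. Pde1c, a phosphodiesterase gene, held the largest rise: region 56335876 to 56336500 inside its body read 9, 8 and 5 in WT and 383, 344 and 417 in PTC1, with 19, 8 and 9 in PTC2 and 5, 18 and 9 in LD. PTC1 stood 5.55 above WT on the log2 scale (SE 0.362). In Pik3c2g, which encodes a class II phosphoinositide kinase, region 139769774 read 41, 29 and 37 in WT and 1057, 1052 and 1101 in PTC1 (log2 4.88). All 4 regions inside its body were higher in PTC1. The same held for 3 of 3 regions in Pde3a, another phosphodiesterase gene, for 2 of 2 in Plxna4, a plexin gene, and for 3 of 3 in Grin2b, the gene of an NMDA receptor subunit. Both printed regions reached a mean of 50 only through PTC1, as did most of the others counted here, so these values and counts describe them and no test is given.

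A region of Ctnna2 was lower in PTC2 and LD. Ctnna2, which encodes the alpha-catenin of neurons, had 1 region used inside its body, 77100938 to 77101663. It read 271, 261 and 244 for WT, 538, 612 and 394 for PTC1, 6, 11 and 5 for PTC2 and 3, 11 and 2 for LD. The log2 change was -5.03 in PTC2 (SE 0.332, limma adjusted p = 1.29e-13) and -5.63 in LD (adjusted p = 2.63e-14), and 0.97 in PTC1 (adjusted p = 0.013). Against its segment the PTC1 change was 0.55 and not called (adjusted p = 0.174), so the region left its segment in PTC2 and LD, at -5.36 and -5.24, and not in PTC1.

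**Figure D5:**
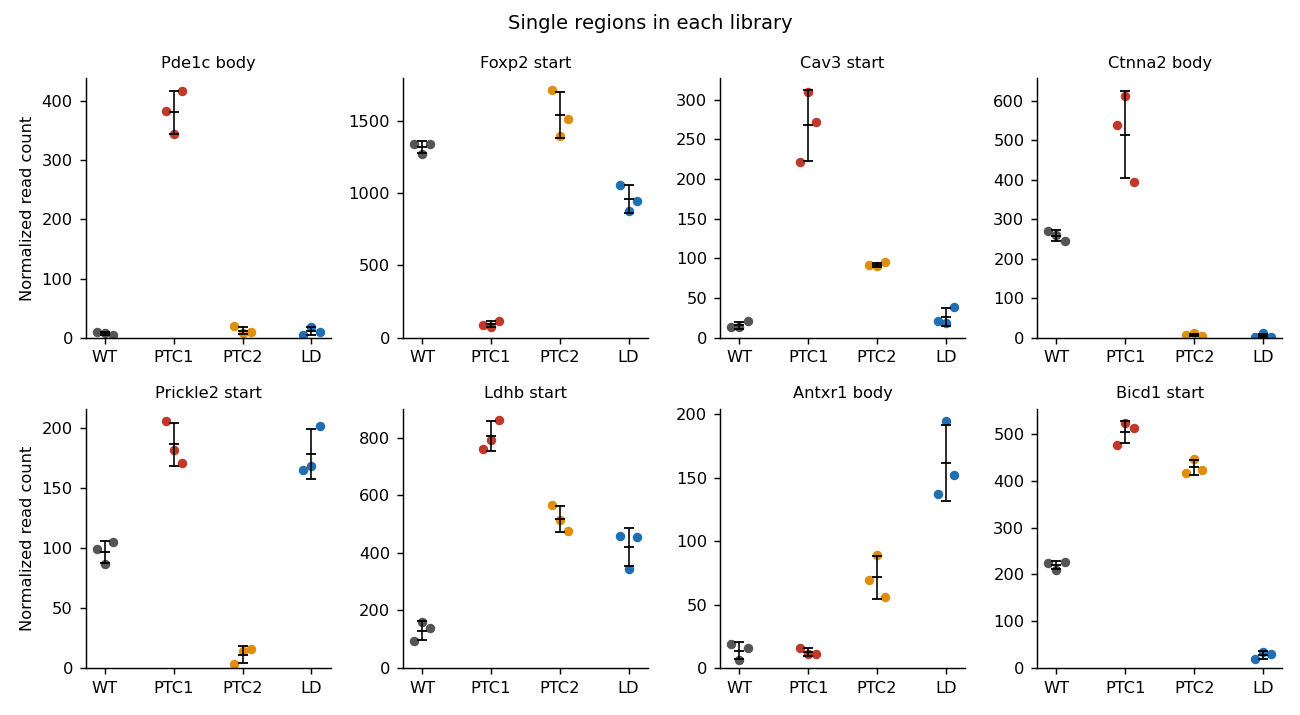
Normalized read count (vertical axis) of 8 single regions in each library, with points for the 3 libraries of a group and a bar for the mean and SD. The Pde1c body region is high in PTC1 alone, and the Ctnna2 body region is near 0 in PTC2 and LD.

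The start site regions behind the promoters printed above were read in every library. Cav3 read 13, 13 and 21 for WT, 221, 309 and 272 for PTC1, 91, 90 and 95 for PTC2 and 21, 19 and 39 for LD. Its log2 change was 4.03 in PTC1 (SE 0.243), 2.51 in PTC2 and 0.68 in LD, where WT and LD values overlap. The region reached a mean of 50 only through PTC1, so no test is given. Prickle2 fell in PTC2 alone, from 99, 87 and 105 in WT to 3, 14 and 16 (log2 -3.28, SE 0.303, adjusted p = 1.76e-10), and was higher in PTC1 and LD. Bicd1 read 224, 210 and 227 in WT, rose to 477, 524 and 512 in PTC1 and 416, 446 and 424 in PTC2, and fell to 18, 34 and 29 in LD (log2 -3.03, SE 0.151, adjusted p = 5.5e-16). Ldhb rose in all 3 lines, from 94, 158 and 137 in WT to 761, 792 and 862 in PTC1, 565, 512 and 477 in PTC2, and 458, 343 and 455 in LD. Its centred change was 2.69 in PTC1, 2.31 in PTC2 and 1.92 in LD. Eva1a read 593, 593 and 617 in WT, fell to 162, 133 and 162 in PTC1, and stood at 1493, 1296 and 1359 in PTC2 and 1011, 935 and 985 in LD.

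Other start sites moved in more than 1 line. Podxl, which encodes the sialomucin podocalyxin, read 489, 482 and 471 for WT, 184, 192 and 175 for PTC1, 59, 59 and 51 for PTC2 and 149, 171 and 172 for LD, below WT in all 3 (log2 -3.07 in PTC2, SE 0.124, limma adjusted p = 2.36e-18). Gata2, a transcription factor gene of blood cells, read 50, 57 and 62 in WT, 39, 23 and 16 in PTC1 and 145, 165 and 178 in LD, a rise of 1.51 in LD (adjusted p = 3.89e-06) and a fall of 1.17 in PTC1 (adjusted p = 7.76e-05). Hdac11, a histone deacetylase gene, had log2 changes of 2.19 in PTC1, 0.86 for PTC2 and 0.32 in LD, the last a call lost without WT replicate 1 (0.22). Eif4e3, a gene of the cap-binding protein family, fell by 2.28 in PTC1 and rose by 1.32 in PTC2.

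Runs of at least 4 consecutive regions that leave in 1 direction, an analysis added after the data were seen, occurred 24 times in PTC1, 16 times in PTC2 and 11 times in LD. In PTC1, 16 of these lay above their segment (85 regions) and 8 below (49 regions). PTC2 had 4 above (17 regions) and 12 below (62 regions), and LD had 3 above (12 regions) and 8 below (78 regions). Runs on the other chromosomes were not counted, so these numbers do not show whether chromosome 6 is unusual. The minimum mean also favours some runs. Regions of the PTC1 run inside Pik3c2g reached it only through PTC1, and some regions of the LD run inside Sox5 only through WT. The counts of runs are therefore descriptions. A run of 12 regions below in LD spanned the T cell receptor beta and trypsin genes, from 41079717 to 41583020, with a median of 186 for WT, 334.7 for PTC1, 253.3 for PTC2 and 21.83 for LD. Its Prss2 region, in a trypsin gene, read 518, 511 and 461 in WT and 45, 29 and 42 in LD (log2 -3.67, SE 0.121, limma adjusted p = 3.2e-20). Runs from 95263816 to 95502766 were above their segment in both premature stop lines. Of their 4 regions, 1 lay inside a gene body, that of Suclg2, a gene of a succinate-CoA ligase subunit. Their median was 21.83 for WT, 271.5 for PTC1, 230.7 for PTC2 and 14 for LD. The region at 95502102 in these runs reached the minimum mean only through PTC2, so these medians are descriptions. A run at Wnt7a, a gene of a WNT ligand, from 91349162, was below in both premature stop lines. Over the PTC1 run the medians were 300.7 for WT, 74.67 for PTC1, 49 for PTC2 and 58.33 for LD.

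Gene lists were read at the region nearest each start site, within 1000 bp. Among RNA-binding and chromatin genes, 24 of 31 were read, of which PTC1 had 15 up and 4 down, PTC2 15 and 3, and LD 2 and 18. Cell cycle and growth control genes, 16 of 22 read, had 7 up and 1 down in PTC1, 10 and 0 for PTC2, and 0 and 14 for LD. Ezh2, the histone methyltransferase of Polycomb complexes, and Mcm2, a subunit of the replicative helicase, were both higher in the premature stop lines (log2 0.45 and 0.49 in PTC1, 0.39 and 0.64 in PTC2) and lower in LD (-0.58 and -0.28). Part of this was the level of their segments. After centring, Ezh2 was called in PTC1 (0.21, limma adjusted p = 4.89e-04) and LD (-0.19, adjusted p = 0.00165) but not in PTC2 (0.05), and Mcm2 was called in PTC2 (0.30, adjusted p = 4.37e-04) but not in PTC1 (0.07) or LD (0.11). Actin cytoskeleton and adhesion genes, 16 of 26 read, had 7 up and 4 down in PTC1, 7 and 6 for PTC2, and 1 and 14 for LD. After centring, these counts were 2 and 4 in PTC1, 4 and 7 for PTC2, and 1 and 7 for LD. The caveolin genes Cav1 and Cav2 were lower in LD by 0.99 and 1.14, and by 0.30 and 0.45 after centring. Actg2, the smooth muscle gamma-actin gene, had log2 changes of 3.93, 3.68 and 0.70 in PTC1, PTC2 and LD, the last a call lost without WT replicate 1 (0.38).

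After centring on the segment, 25.7% of all start site regions on the chromosome were higher and 21.7% lower in PTC1, 29.9% and 15.6% for PTC2, and 19.3% and 30.3% for LD, at an adjusted p under 0.05 with no minimum change. Beside these shares, 6 of the 24 RNA-binding and chromatin genes were higher and 4 lower in PTC1, 7 and 4 for PTC2, and 4 and 10 for LD. For the 16 cell cycle genes the centred counts were 5 and 3 in PTC1, 4 and 0 for PTC2, and 0 and 5 for LD. The HOXA cluster list also holds Skap2 and Evx1, which are not HOXA genes. Of its 14 genes 9 were read, Skap2 among them. Before centring they had 5 up and 1 down in PTC1, 8 and 0 for PTC2, and 0 and 8 for LD. After centring, 1 was higher and 1 lower in PTC1, 0 and 4 for PTC2, and 1 and 0 for LD. Without centring, adipocyte and metabolic genes, 10 of 21 read, had 5 up and 0 down in PTC1, 6 and 1 for PTC2, and 2 and 4 for LD. Extracellular matrix genes, 8 of 22 read, were 3 and 2, 3 and 4, and 1 and 4 in the same order, with Ptn, the gene of the growth factor pleiotrophin, higher by 1.94 in PTC1, and Fbln2, which encodes fibulin-2, by 0.71 in PTC2. Immune genes, 8 of 24 read, were 5 and 2, 5 and 2, and 2 and 4. Neural and muscle genes, 6 of 29 read, were 0 and 2, 0 and 1, and 1 and 5. Before centring, 52.3% of all start site regions on the chromosome were up and 17.1% down in PTC1, 53.1% and 15% for PTC2, and 5.88% and 73.9% for LD, with median log2 changes of 0.19, 0.20 and -0.41. The list medians were 0.31, 0.27 and -0.49 for the RNA-binding and chromatin genes and 0.09, 0.18 and -0.35 for the cell cycle genes.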

How the data were processed

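The authors deposited 1 table for mm10 with a normalized read count per region and library. These values are a score: whole numbers that the authors made from read counts by scaling each library with its own factor and rounding, as the deposited values themselves show, so they were not treated as raw counts. Per the file headers, the deposited table also lists a gene, how many base pairs lie between its start site and the region's centre, and which fraction of a region overlaps that gene. Per the submitters' processing notes, DESeq2 1.30.1, Picard 2.25.5, STAR 2.7.10a and Trimmomatic 0.39 were used, in roles that are not stated. The sources used here do not give the peak caller or any Tn5 shift. Positions were set against RefSeq genes of GRCm38.p6, the same build as mm10.

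The 81985 regions whose mean reached 5 were fitted on a log2 scale after adding 1 (limma 3.58.1, R 4.3.3, a mean per group over the 12 libraries, empirical Bayes with a trend), and 10 regions were left out. Such log2 changes understate the change of low regions. A region was called at an adjusted p under 0.05. Segments minimised the absolute deviation, limited to 1 per region, plus a penalty of 10 per edge, over levels from -4 to 4 in steps of 0.05 (Python 3.11.15, numba 0.67.0). Both steps were tested on simulated data, in which small steps, of a size range that holds the edges at 67475645 in PTC1 and 115998815 in LD, were more often missed than found. Each simulated region varied independently of its neighbours, whereas neighbouring regions left together in the runs given above. The simulation therefore cannot show how often edges are false or misplaced in these data. The estimated reads were recovered from gaps in the whole numbers, and the variance between replicates was 2.4 to 4.56 times counting noise.

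For each line, the 10 largest rises and falls among regions that left their segment were named, with all 3 mutant libraries beyond all WT libraries, 1 per gene and 1 per 100000 bp, as were the regions beside each edge and up to 4 genes per list. Some are given in ranges or left out. The lists, the tests and these members were chosen with earlier results of these data known, and the gene bodies described at length were chosen after their values were seen.

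Same-numbered libraries of different groups deviated together with a correlation of -0.004 to 0.045, and libraries with different numbers with -0.040 to 0.022. Any pairing by number was therefore weak, and the main fit did not pair the libraries. Alternatives were other scalings, pseudocounts, minimum means, penalties and loss limits, a replicate block, and leaving out each library.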

Additional observations from a re-analysis of the deposited data

Results flagged for a closer look

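These regions changed differently in different lines, by a limma test of the difference itself, adjusted over all regions. Signs are PTC1 minus PTC2, or the mean of PTC1 and PTC2 minus LD. Many regions of the genome passed these tests, and the members were chosen for the size of their change. The regions at 139769774, 141408650, 149565745 and 110120351 reached a mean of 50 only through PTC1, so their differences are descriptions that the test does not support.

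PTC1 exceeded PTC2 by 5.99 at Ctnna2 (77100938), by 5.49 at the Pde3a body (141408650), by 5.44 at the Pik3c2g body (139769774), by 4.97 at 42709558 inside the Tcaf1 body, by 4.87 at 30173286, by 4.39 at 149565745, by 4.21 at Prickle2 and by 1.52 at 144210991 inside the Sox5 body. At Prickle2 PTC2 fell and PTC1 rose, and at 144210991 LD stood far lower still, at -5.11 from WT.

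PTC1 was below PTC2 by -5.50 at 15038130 and by -3.46 at 15284063, both inside the Foxp2 body, by -4.51 at 145445608, by -4.10 at 82052218 inside the Eva1a body, and by -3.73 at 127079708 inside the body of Fgf23, the gene of a phosphate-regulating hormone. Each of these 5 regions was lower than WT in PTC1 and above WT in PTC2.

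Against LD, the premature stop lines stood higher on average by 5.01 at 110120351, where no gene is listed and PTC1 alone stood high, at 293, 281 and 243. They were above LD by 4.36 at Prss2 and by 4.10 at Bicd1, where both premature stop lines lay above WT and LD below it.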

How the results depend on the processing

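The number of segments depended on the settings of the search. PTC1 had 6, and 3 with a penalty of 20, 10 with a loss limit of 2 and 3 with start site regions alone at a penalty of 5. PTC2 had 5, and 3 with a penalty of 20. LD had 3, and 8 with a penalty of 5, 6 with a loss limit of 2 and 5 with a minimum mean of 20. The median level of PTC1 (0.14) became 0.20 with loess normalization and 0.19 with start site regions alone. That of PTC2 (0.07) became 0.17 with the same median in every library, 0.093 with loess and 0.20 with start site regions alone. That of LD (-0.37) became -0.45, -0.34 and -0.41 under these 3 settings and -0.36 with a pseudocount of 10. The level of the first PTC2 segment turned from -0.06 to 0.039 with the same median. The cause was not tested.

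Without 1 library, called regions numbered 1351 to 1446 up and 830 to 903 down for PTC1, 1169 to 1286 and 978 to 1062 for PTC2, 286 to 336 and 1866 to 1990 for LD, 2208 to 2306 and 479 to 532 for the premature stop lines against LD, and 1177 to 1272 and 874 to 948 for PTC1 against PTC2. Regions that left their segment ranged from 347 to 358 and 321 to 332 in PTC1, 229 to 243 and 403 to 430 in PTC2, and 165 to 189 and 208 to 224 in LD. The number of segments stayed at 6, 5 and 3.

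With the replicate block, PTC1 had 1448 regions up and 905 down, PTC2 had 1289 and 1063, LD had 339 and 2000, and there were 2308 and 533 for the premature stop lines against LD, and 1274 and 953 for PTC1 against PTC2, and the counts that left their segment, 349 and 322, 235 and 418, and 170 and 214, equalled those without it. Among named regions 21 values lost their call, at Hoxa3 and Cav2 in PTC2, Mgp in PTC1 and LD, Klrg1 in PTC1, and Actg2 and Hdac11 in LD.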
